A study of Mus musculus with 4 samples.

Results

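AP-1 is a transcription factor built from pairs of Fos and Jun proteins. Several of its subunit genes, such as Fos and Jun, are immediate early genes. Cells switch such genes on within minutes of a stimulus and without making new protein first. The 10 genes described here were taken by symbol from a list of Fos, Jun and early response genes: Fos, Fosb, Fosl1 and Fosl2, which encode the Fos family; Jun, Junb and Jund, which encode the Jun family; Atf3, a related leucine zipper factor; Egr1, a zinc finger factor; and Ier2, a small early response protein. All 10 were found among 23334 gene rows measured by RNA sequencing.

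Expression was measured in 4 libraries of cells sorted from the hippocampus of Vegfr3::YFP mice on the C57BL/6 background, a reporter line whose yellow fluorescence follows the gene Vegfr3 (Flt4), which encodes a receptor of VEGF-C. The groups were YFP+ cells (reporter positive) with VEGF-C at 50 ng/ml, YFP+ cells without it, YFP- cells (reporter negative) with VEGF-C at 50 ng/ml and YFP- cells without it, all cultured for 18 h, with VEGF-C present from seeding where it was given. The labels call the YFP+ cells neural stem cells and the YFP- cells neurons, both of the subgranular zone, the neurogenic layer of the dentate gyrus. The labels give neither sex nor age. Cells came from 2 groups of 16 mice and were pooled within each condition, so each group has 1 library and no difference below has a replicate check or a p-value. Because these are bulk libraries, fewer cells of a type and less RNA per cell cannot be told apart.

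Fos proteins bind DNA only after pairing with another leucine zipper protein, usually a Jun protein, whereas Jun proteins can also pair with each other. Growth factor receptors that act through the kinase ERK, VEGFR3 among them, are known to raise transcription of Fos and Egr1 quickly, and the response usually fades within hours. The libraries were made once, after 18 h of culture, so they hold no time course.

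The libraries were of unequal depth and breadth. They held 8390507 to 60326302 fragments, inferred from the steps of the deposited normalized counts, which are not themselves whole, and 13528 and 13132 rows lay above 0 in the YFP+ library with VEGF-C and the YFP- library without it, but 9669 and 9556 in the library of YFP+ cells cultured without VEGF-C and that of YFP- cells cultured with it. The last pair are called the sparse libraries here. Rows at 1 FPKM or more (fragments per kilobase of transcript, scaled to sequencing depth) had median levels of 24.5 and 25.4 FPKM in this sparse pair, against 10.2 and 10.3 FPKM in the other pair, so an abundant gene tends to have a higher FPKM in a sparse library. For this reason the members are read against rows with a mean of at least 20 FPKM, called well-expressed below, as well as against all rows with at least 1 FPKM.

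Markers of the labelled cell types were checked in the same libraries. Neural stem cell and astrocyte markers (8 genes) summed to 1366 and 1648 FPKM in YFP+ cells with and without VEGF-C, against 97.9 and 23.3 FPKM in YFP- cells with and without it. Fabp7 alone made up 95.8 of the 97.9 FPKM. Of the 8 genes, 2 reached 1 FPKM in YFP- cells with VEGF-C and 6 without it. The YFP- cells are labelled neurons, but their 7 neuron markers summed to 70.2 and 95.9 FPKM with and without VEGF-C, below the 428 and 449 FPKM of the YFP+ libraries, and their 6 oligodendrocyte markers to 8300 and 6854 FPKM. Not every neuron marker had the order of the sums. Snap25 stood at 39.9 and 21.1 FPKM in YFP- cells with and without VEGF-C, against 20.4 and 6.28 FPKM in YFP+ cells. With VEGF-C, Dcx stood at 20.9 FPKM in YFP- and 8.43 FPKM in YFP+ cells. Of the neuron markers measured, 4 of 5 without VEGF-C and 4 of 6 with it were at least 2-fold higher in YFP+ cells, against 30.1% and 47.0% of all rows. Microglia markers (8 genes) summed to 12.7 and 0.931 FPKM in YFP+ cells with and without VEGF-C, and to 737 and 210 FPKM in YFP- cells. P2ry12 was listed at 0 in all 4 libraries and C1qa in 3 of them. Endothelial markers (5 genes) did not exceed 9.62 FPKM in sum. The populations are therefore called YFP+ and YFP- here, and the part of these other cell types in the values below was not tested.

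Every one of the 10 genes was above 0 in all 4 libraries, and 8 were at 1 FPKM or more in each. The YFP+ library without VEGF-C held the highest value of 6 members, Fos, Fosb, Fosl2, Jun, Junb and Atf3. Among 3939 well-expressed rows, 42.9% had their highest value in that library. The YFP+ library with VEGF-C was highest for Fosl1 and Ier2, where 8.91% of well-expressed rows were. The YFP- library with VEGF-C was highest for Jund and Egr1, against 40.1% of well-expressed rows, and the YFP- library without it for 0 members, against 8.05%. Egr1 was highest in that last library once libraries were scaled to equal upper quartiles or equal sums of FPKM. Over all 12769 rows at 1 FPKM or more in at least 1 library, the highest value lay in these libraries, in the order named, for 26.9%, 23.5%, 25.7% and 23.9%. The lowest value of 6 members lay in the YFP- library with VEGF-C, against 25.9% of well-expressed rows. The YFP- library without VEGF-C was lowest for 3 members, against 26.4%, the YFP+ library with it for 1, against 20.9%, and the YFP+ library without it for 0, against 26.8%.

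**Figure D1:**
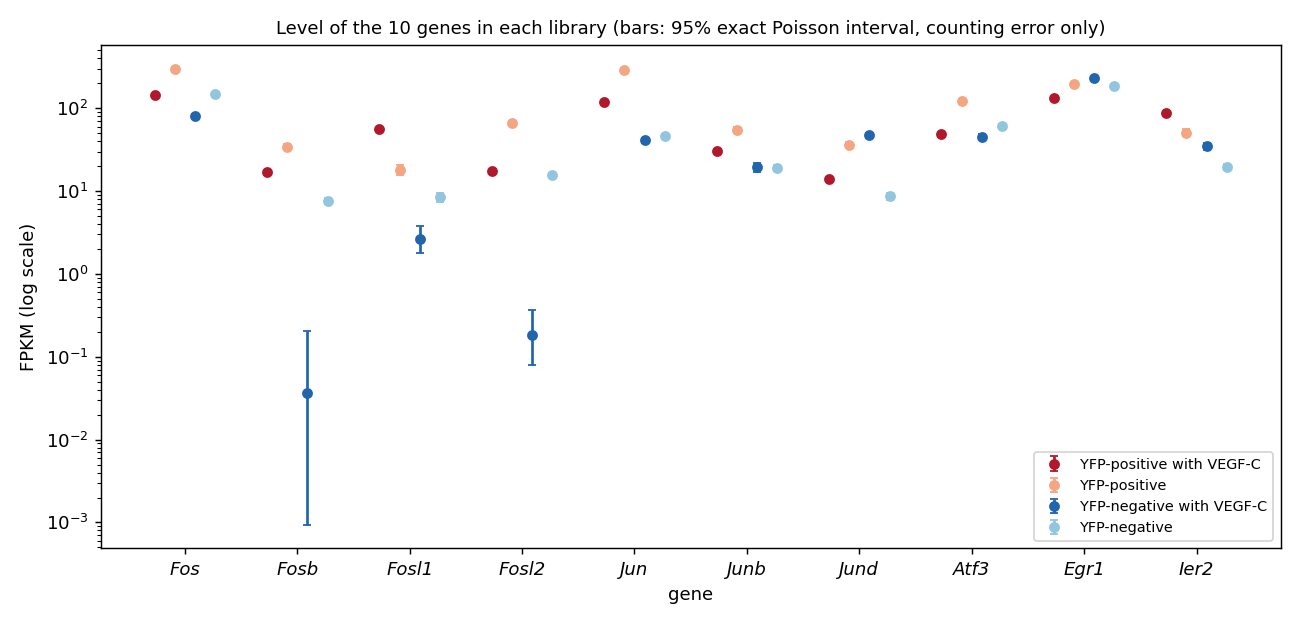
FPKM on a log scale of the 10 genes in the 4 libraries, 1 point per library, with the 95% exact Poisson interval of its fragments (counting error only). Fos, Jun, Atf3 and Egr1 reach above 100 FPKM in at least 1 library, and Fosb and Fosl2 fall below 1 FPKM in the YFP- library with VEGF-C alone.

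Promoter windows of the most abundant members for which the RefSeq table (GRCm38.p6) has one are shown because members shared an order over the libraries, Fos with Atf3 and Jun with Fosb and Fosl2. How many rows have either order was not counted, and that of Fos was lost when libraries were scaled to equal sums of FPKM. They run from 250 bases before to 50 bases after the RefSeq start, 5′ to 3′ on the gene's strand. Capitals mark matches to TGACG, the core of the cyclic AMP response element that CREB and ATF factors read, or to TGACNTCA, the form with 1 free base in the middle. The windows are chr12:85473640-85473939 on the plus strand for Fos, chr4:95052173-95052472 on the minus strand for Jun and chr1:191183284-191183583 on the minus strand for Atf3.
Fos: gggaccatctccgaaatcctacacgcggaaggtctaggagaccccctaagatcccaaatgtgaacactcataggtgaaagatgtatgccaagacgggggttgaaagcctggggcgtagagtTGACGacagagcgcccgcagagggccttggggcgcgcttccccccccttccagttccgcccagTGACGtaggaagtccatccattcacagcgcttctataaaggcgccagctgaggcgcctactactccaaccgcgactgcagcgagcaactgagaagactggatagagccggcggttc
Jun: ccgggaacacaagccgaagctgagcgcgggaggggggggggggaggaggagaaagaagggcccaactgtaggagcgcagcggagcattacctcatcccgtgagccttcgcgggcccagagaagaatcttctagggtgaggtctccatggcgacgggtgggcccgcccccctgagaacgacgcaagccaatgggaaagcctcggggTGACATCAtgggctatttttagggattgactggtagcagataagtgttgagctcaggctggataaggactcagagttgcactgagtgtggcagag
Atf3: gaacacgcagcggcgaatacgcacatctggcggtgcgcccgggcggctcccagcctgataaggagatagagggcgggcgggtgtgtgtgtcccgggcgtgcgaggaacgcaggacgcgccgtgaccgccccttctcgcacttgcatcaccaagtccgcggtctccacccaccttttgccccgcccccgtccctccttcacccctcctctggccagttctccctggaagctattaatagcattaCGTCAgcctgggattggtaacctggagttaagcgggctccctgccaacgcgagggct
Windows were found for 7 of the 10 members, Fos, Fosb, Fosl2, Jun, Junb, Jund and Atf3. That of Jund lies upstream of the gene's start in GENCODE M21. Those of Atf3 and Fosl2 lie within the gene, downstream of its start there. On either strand, TGACG occurred in 4 of the 7 (Fos, Fosb, Junb and Atf3), against 20.8% of 32817 RefSeq windows of the same length. In Fos it lay at positions -129 to -125 and -66 to -62 relative to the start, in Fosb at -60 to -56, in Junb at -106 to -102 and, on the other strand, in Atf3 at -7 to -3. TGACNTCA, which contains TGACG when its free base is G, occurred only in Jun, at -45 to -38 with the letters TGACATCA, against 8.84% of all windows. The AP-1 element TGANTCA, present in 7.81% of windows, and the CArG box of serum response factor, present in 1.63%, matched 0 of the 7. These matches describe letters and not binding, and windows of other lengths were not searched.

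Within the Fos family, Fos was the most abundant member in every library. Fos (chromosome 12, 85473890 to 85477273, plus strand, mm10, ENSMUSG00000021250.13) stood at 144 FPKM with VEGF-C and 301 FPKM without it in YFP+ cells, against 81.5 FPKM with it and 149 FPKM without it in YFP- cells. These values rest on 20905, 4118, 1197 and 6076 inferred fragments in the same order of libraries. The 95% exact Poisson intervals were 142 to 146, 292 to 310, 76.9 to 86.2 and 146 to 153 FPKM, so the YFP+ library with VEGF-C and the YFP- library without it just overlapped and the other libraries stood well apart. Both libraries with VEGF-C were below both without it for Fos, an order that was lost when libraries were scaled to equal sums of FPKM. Over all rows that order held for 9.26%, and over well-expressed rows for 10.1%.

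Fosb, whose protein also exists in a shortened stable form in neurons, was measured well in 3 libraries and rested on a single fragment in the fourth. It stood at 16.9 and 34.3 FPKM in YFP+ cells with and without VEGF-C, against 0.0364 and 7.52 FPKM in YFP- cells with and without it (chromosome 7, 19302696 to 19310051, minus strand). The low value is 1 inferred fragment, with an interval of 0.000922 to 0.203 FPKM, against 573 fragments without VEGF-C. Fosl2, which encodes Fra-2, showed the same shape at higher counts. Its levels were 17.6 and 66.0 FPKM in YFP+ cells with and without VEGF-C, and 0.185 FPKM from 8 fragments and 15.8 FPKM from 1900 fragments in YFP- cells with and without it (chromosome 5, 32135801 to 32157842, plus strand). Such gaps were not rare in the sparse libraries. By limits set after these values were seen, 515 of 3958 rows, 13.0%, that reached 5 FPKM in each of the other 3 libraries were under 0.5 FPKM in the YFP- library with VEGF-C. The same share was 13.5% for the YFP+ library without VEGF-C, 0.433% for the YFP+ library with it and 0.829% for the YFP- library without it.

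Fosl1, which encodes Fra-1, a Fos protein known to build up under sustained ERK signalling, had a different order. It stood at 56.7 FPKM with VEGF-C (6582 fragments) and 17.9 FPKM without it (196 fragments) in YFP+ cells, against 2.64 FPKM with it (31 fragments) and 8.44 FPKM without it (274 fragments) in YFP- cells (chromosome 19, 5447547 to 5455946, plus strand). The intervals of the 4 values, 55.4 to 58.1, 15.5 to 20.6, 1.79 to 3.75 and 7.47 to 9.50 FPKM, did not overlap, and both YFP+ libraries lay above both YFP- ones.

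Jun was the most abundant Jun family gene in 3 of the 4 libraries. It stood at 120 and 288 FPKM in YFP+ cells with and without VEGF-C, against 41.0 and 46.9 FPKM in YFP- cells with and without it (chromosome 4, 95049034 to 95052222, minus strand). The lower YFP+ value was thus 2.92 times the YFP- value of the same VEGF-C pair, with an interval of the ratio of 2.73 to 3.12. Junb, often a brake on the growth-promoting action of Jun, stood at 30.3 and 55.4 FPKM in YFP+ cells with and without VEGF-C, against 19.4 and 19.0 FPKM in YFP- cells with and without it (chromosome 8, 84974484 to 84978718, minus strand). The YFP- values of Junb had overlapping intervals of 17.0 to 21.9 and 17.6 to 20.5 FPKM.

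Jund, usually the steadily expressed member of its family, was the exception. It stood at 13.9 FPKM (2844 fragments) and 36.4 FPKM (700 fragments) in YFP+ cells with and without VEGF-C, against 47.0 FPKM (969 fragments) and 8.63 FPKM (494 fragments) in YFP- cells with and without it (chromosome 8, 70698949 to 70700616, plus strand). Its high values are those of the sparse libraries, and its low values those of the broader ones.

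Atf3, a stress-inducible factor that pairs with Jun proteins, stood at 49.5 and 123 FPKM in YFP+ cells with and without VEGF-C, against 45.6 and 61.5 FPKM in YFP- cells with and without it (chromosome 1, 191170296 to 191218039, minus strand). With VEGF-C the populations had intervals of 48.3 to 50.7 and 42.1 to 49.3 FPKM, which overlap. Egr1, a growth factor and activity response gene, varied least. Its levels were 131 and 194 FPKM in YFP+ cells with and without VEGF-C, and 232 and 187 FPKM in YFP- cells with and without it (chromosome 18, 34859823 to 34864984, plus strand). Without VEGF-C the Egr1 intervals were 188 to 200 FPKM in YFP+ cells and 184 to 191 FPKM in YFP- cells and overlapped. Ier2 stood at 87.8 and 51.0 FPKM in YFP+ cells with and without VEGF-C, against 34.6 and 19.7 FPKM in YFP- cells with and without it (chromosome 8, 84661331 to 84662852, minus strand). It was higher with VEGF-C in both populations and higher in YFP+ cells in both pairs.

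Shares within a library do not depend on how the libraries were scaled to each other. Fos made up 61.2% and 71.8% of the summed FPKM of its family in YFP+ cells with and without VEGF-C, and 96.6% and 82.5% in YFP- cells with and without it. Fosl1 took 24.1% in the YFP+ library with VEGF-C and 3.13% to 4.66% in the other 3. Fosl2 took 7.47% and 15.7% in YFP+ cells with and without VEGF-C, and 0.219% and 8.72% in YFP- cells. In the other 3 libraries no Fos family gene other than Fos exceeded 15.7% of the family.

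In the Jun family, Jun took 73.0% and 75.8% in YFP+ cells with and without VEGF-C, and 38.2% and 62.9% in YFP- cells with and without it. Jund took 8.49% and 9.59% in YFP+ cells, and 43.7% and 11.6% in YFP- cells, in the same order. In the YFP- library with VEGF-C, Jund exceeded Jun by a factor of 1.14, while Jun exceeded Jund by factors of 8.60, 7.91 and 5.44 in the YFP+ libraries with and without VEGF-C and the YFP- library without it. The summed Fos family stood to the summed Jun family as 1.43 and 1.10 in YFP+ cells with and without VEGF-C, and as 0.786 and 2.43 in YFP- cells with and without it. Between Egr1 and Jun the ratio was 1.10 and 0.673 in YFP+ cells, and 5.65 and 3.99 in YFP- cells. Several such ratios were computed, and how many gene pairs have this order was not counted.

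**Figure D2:**
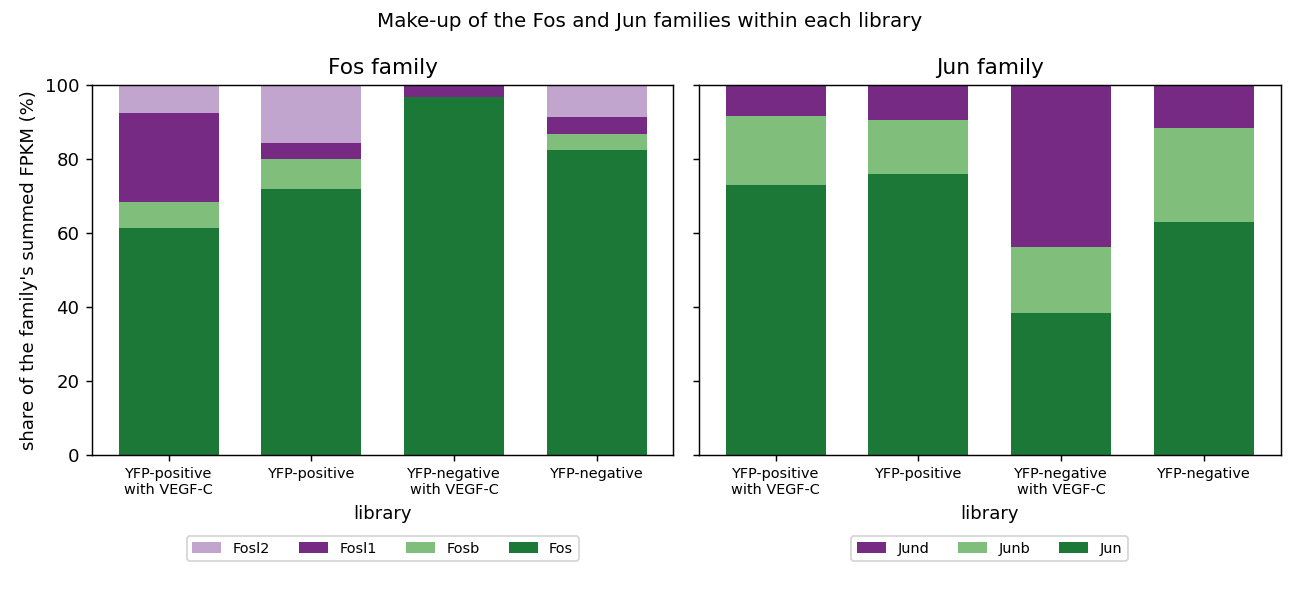
Share of each gene in the summed FPKM of the Fos family (left) and the Jun family (right), in percent, 1 bar per library. Fosl1 is widest in the YFP+ library with VEGF-C at 24.1%, and Jund in the YFP- library with VEGF-C at 43.7%.

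The rank of a member in its own library is free of scaling, whereas the share of rows at 1 FPKM or more that lie below it also moves with the number of such rows, 10447 and 6966 in YFP+ cells with and without VEGF-C, and 6930 and 10363 in YFP- cells with and without it. Fos lay above 94.3% and 93.8% of these rows in YFP+ cells with and without VEGF-C, and above 78.1% and 94.8% in YFP- cells with and without it. Jun lay above 93.3% and 93.6% in YFP+ cells, and above 61.9% and 84.4% in YFP- cells. By rank from the top, Fos was 593 and 431 in YFP+ cells with and without VEGF-C, and Jun 696 and 449, so the near-equal shares in YFP+ cells go with a longer list and a lower rank with VEGF-C. Fosl1 lay above 86.8% and 42.5% in YFP+ cells with and without VEGF-C, and above 10.3% and 44.3% in YFP- cells, with ranks of 1377 and 4008, and of 6217 and 5768. Ier2 lay above 91.0% and 67.2% in YFP+ cells, and above 57.5% and 67.4% in YFP- cells. The rank of Ier2 was 939 and 2282 in YFP+ cells, and 2943 and 3380 in YFP- cells. By rank it thus stood higher with VEGF-C in both populations, although its share in YFP- cells was lower. A rank also rises where rows above it are missing. In the YFP- library with VEGF-C, 13.0% of rows at 5 FPKM or more in each of the other 3 were under 0.5 FPKM. Whether such gaps account for the rank of Ier2 there was not tested. Egr1 kept between 90.4% and 95.8% in all 4 libraries.

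**Figure D3:**
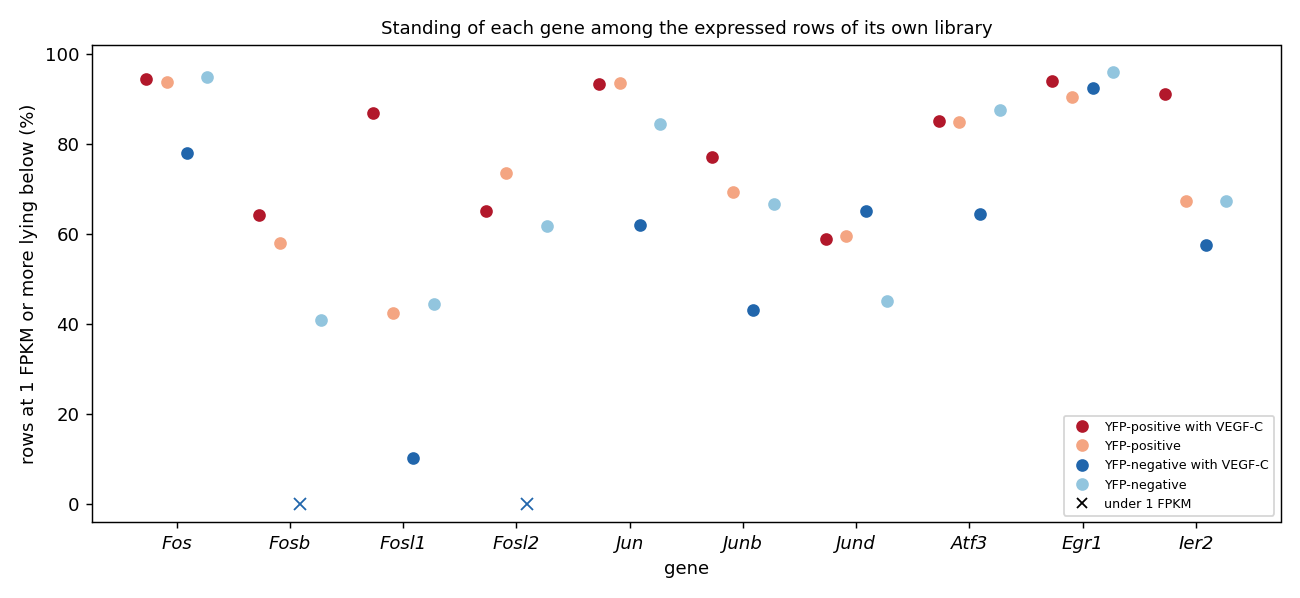
Share of rows at 1 FPKM or more in the same library that lie below each gene, in percent, 1 point per library, over lists of 6930 to 10447 rows. Crosses at 0 mark Fosb and Fosl2 under 1 FPKM in the YFP- library with VEGF-C, which has the lowest share for 8 genes. Fosb, Fosl1, Junb and Ier2 stand highest in the YFP+ library with VEGF-C.

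The first comparison asked how YFP+ cells with VEGF-C differed from those without it. Differences are log2 ratios of FPKM + 1, which understate the change of low genes, and a gene at 2-fold or more on that scale is counted. Of the 10 members, 1 was higher and 5 were lower (median -1.02). Over 11040 rows with at least 1 FPKM in 1 of both libraries, 45.5% were higher and 26.3% lower (median 0.59). Over 3767 well-expressed rows, 13.0% were higher and 44.6% lower (median -0.84). The share of lower members was therefore near that of well-expressed rows. The lower ones were Fosl2 (-1.85), Jund (-1.33), Atf3 (-1.30), Jun (-1.26) and Fos (-1.06), and Fosb, Junb and Egr1 stood at -0.98, -0.85 and -0.56. Fosl1 was higher at 1.61, an FPKM ratio of 3.16 with a counting interval of 2.74 to 3.66, and Ier2 stood at 0.77. Under a scaling to equal sums of FPKM, 2 members were higher and 1 was lower, under upper-quartile scaling 2 and 2, and after re-centring on the median row 1 and 8. Fosl1 was above 1 under all 3 of these, and Egr1 changed sign to 0.02 with equal sums.

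In YFP- cells the same comparison gave 1 member higher with VEGF-C and 3 lower, with a median of -0.31. Among the 6 well-expressed members, which leave out Fosb, Fosl1, Fosl2 and Junb, 1 was higher and 0 were lower (median 0.06). Over 10968 rows, 25.3% were higher and 45.3% lower (median -0.54), and over 3724 well-expressed rows 42.6% were higher and 11.3% lower (median 0.81). Jund was higher at 2.32, an FPKM ratio of 5.44 with an interval of 4.88 to 6.08. Fosl2 was lower at -3.82, Fosb at -3.04 and Fosl1 at -1.37. The FPKM ratio of Fosb, which rests on 1 fragment with VEGF-C, was 0.00485 with an interval of 0.000123 to 0.0271. Fos stood at -0.87, Atf3 at -0.42, Jun at -0.19, Junb at 0.03, Egr1 at 0.31 and Ier2 at 0.78. Atf3 and Jun turned positive after re-centring, and Junb and Egr1 turned negative under upper-quartile scaling and equal sums. Those scalings gave 1 member higher and 4 lower, and re-centring 2 and 2. Microglia markers summed to 737 FPKM with and 210 FPKM without VEGF-C in these cells, and their part in the result was not tested.

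At the pseudocount of 1, the responses differed most between populations for Jund, with -1.33 in YFP+ and 2.32 in YFP- cells, and for Fosl1, with 1.61 and -1.37. The difference of both responses (YFP+ minus YFP-) was -3.64 for Jund and 2.98 for Fosl1. At a pseudocount of 0.1 it was 4.79 for Fosb and 3.90 for Fosl2, which rest on 1 and 8 inferred fragments in YFP- cells with VEGF-C, against -3.81 for Jund and 3.30 for Fosl1. It reached 2-fold upward for 3 members, against 51.7% of 12769 rows, and downward for 2, against 27.4%. Over well-expressed rows those shares were 27.3% and 44.1%, and of the 9 well-expressed members, which leave out Fosb, 2 went upward and 2 downward. With 1 library per group, no difference between responses could be tested.

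**Figure D4:**
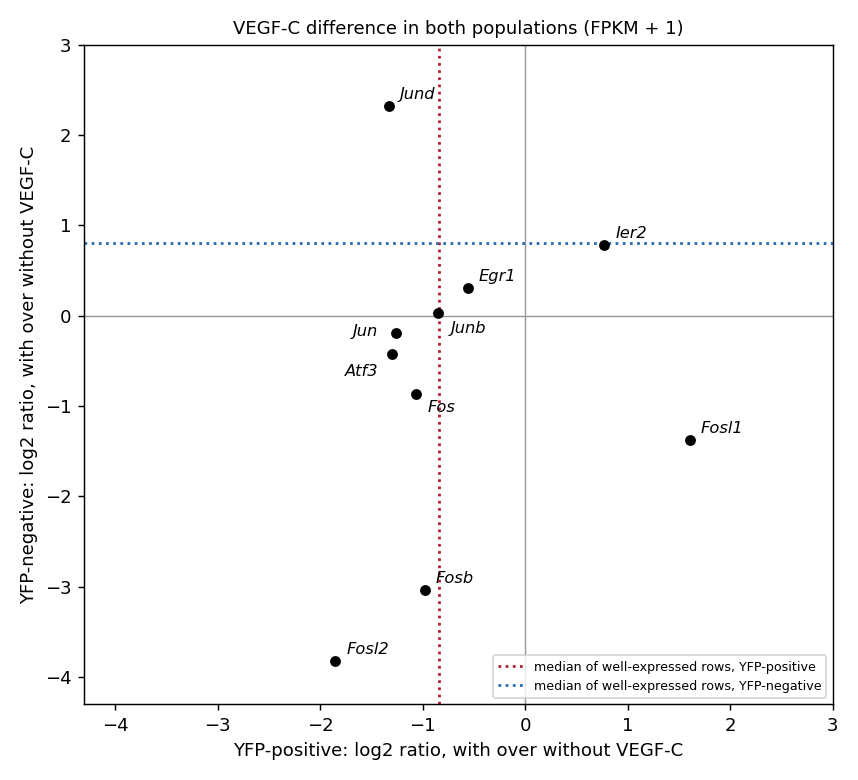
Log2 ratio of FPKM + 1, with over without VEGF-C, in YFP+ cells (horizontal) and YFP- cells (vertical), 1 point per gene, with dotted lines at the medians of well-expressed rows, -0.84 and 0.81. Jund and Fosl1 lie in opposite corners, and Ier2 is above 0 on both axes.

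The second comparison asked how YFP+ cells differed from YFP- cells. Without VEGF-C, 8 of the 10 members were at least 2-fold higher in YFP+ cells and 0 were lower (median 1.41). Among the 9 well-expressed members, which leave out Fosl1, 7 were higher and 0 were lower (median 1.50). Over 11265 rows, 30.1% were higher and 46.7% lower (median -0.66), and over 3834 well-expressed rows 49.8% and 16.4% (median 0.99). Jun led at 2.59, from 288 FPKM in YFP+ against 46.9 FPKM in YFP- cells, an FPKM ratio of 6.14 with an interval of 5.87 to 6.41. Fosb stood at 2.05, Jund at 1.96, Junb at 1.50, Ier2 at 1.33 and Fos at 1.01. The FPKM ratio was 4.18 for Fosl2, with an interval of 3.94 to 4.43, and 2.12 for Fosl1, with an interval of 1.76 to 2.56. Atf3 at 0.99 lay just below the 2-fold line. Egr1 at 0.05 was at about the same level, and its sign turned under upper-quartile scaling (-0.25) and equal sums (-0.35). The 8 higher members became 5 with equal sums, 6 with upper-quartile scaling and 9 after re-centring, with 0 lower in each.

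With VEGF-C, 5 members were at least 2-fold higher in YFP+ cells and 1 was lower, with a median of 1.07. Among the 8 well-expressed members, which leave out Fosb and Fosl2, 3 were higher and 1 was lower (median 0.72). Here the sparse library is on the other side. Over 11229 rows, 47.0% were higher and 27.6% lower (median 0.69), and over 3818 well-expressed rows 16.2% and 45.2% (median -0.79). Fosb stood at 4.11, Fosl1 at 3.99, Fosl2 at 3.97, Jun at 1.52 and Ier2 at 1.32. Fosl1 had an FPKM ratio of 21.5 with an interval of 15.1 to 31.6, and Fosl2, from 8 fragments in YFP- cells, one of 95.1 with an interval of 48.2 to 220.3. Fos stood at 0.81, Junb at 0.62 and Atf3 at 0.12, and Egr1 at -0.82 and Jund at -1.68 were higher in YFP- cells. Re-centring left 3 higher and 2 lower and turned Junb and Atf3 negative. Equal sums gave 7 and 1, and upper-quartile scaling 6 and 1.

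The pairs with and without VEGF-C share no library. Fosb, Fosl1, Fosl2, Jun, Junb and Ier2, 6 of the 10, were above both YFP- libraries in both YFP+ ones, against 18.7% of all rows and 24.0% of well-expressed rows. The opposite order was found for 0 members, against 17.1% and 21.3%. Fos missed the first group because 144 FPKM in YFP+ cells with VEGF-C lay just under 149 FPKM in YFP- cells without it. Both libraries with VEGF-C were below both without it for Fos and Atf3, and above for 0 members, against 10.3% of all rows and 12.1% of well-expressed rows. Over these same libraries, stem cell and astrocyte markers were high with the YFP+ cells, and oligodendrocyte and microglia markers with the YFP- ones.

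**Figure D5:**
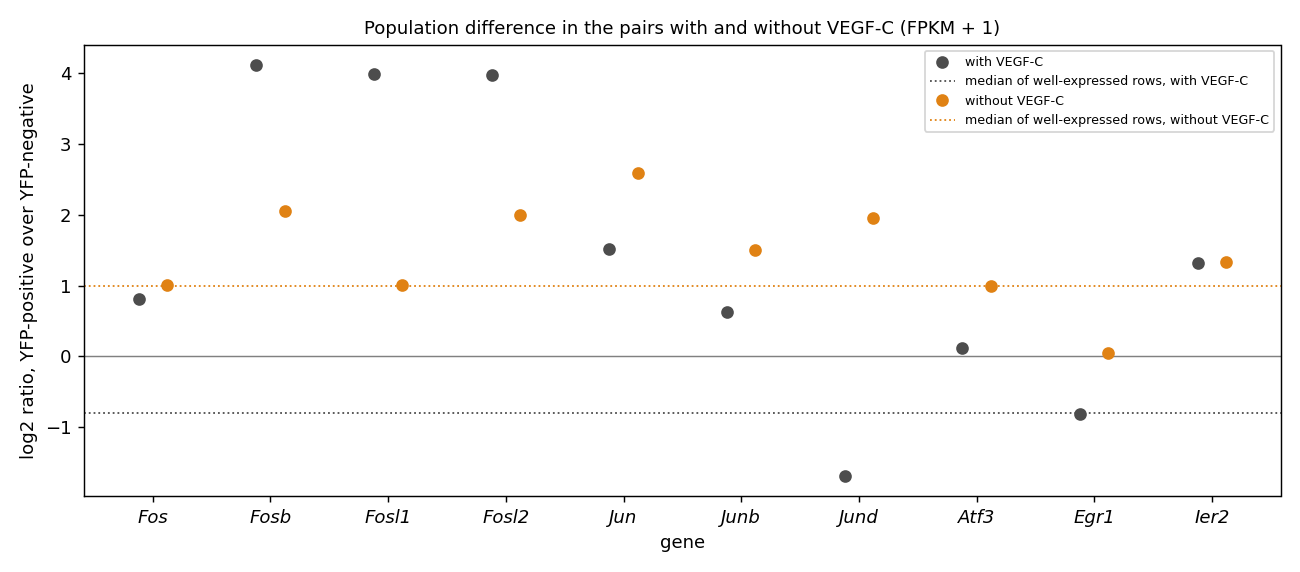
Log2 ratio of FPKM + 1, YFP+ over YFP-, for each gene with VEGF-C (grey) and without it (orange), with dotted lines at the medians of well-expressed rows, -0.79 and 0.99. Fosb, Fosl1, Fosl2, Jun and Ier2 exceed 1 in both pairs, Atf3 and Egr1 in neither, and Jund and Egr1 have opposite signs.

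Other genes of the pathway were read from 3 further lists, whose counts and medians stand beside the shares and medians of all and of well-expressed rows given above for each comparison. Of 37 other immediate early genes, 34 were measured in the YFP+ pair, where 9 were at least 2-fold higher with VEGF-C and 13 lower, with a median of -0.63. In YFP- cells 10 of 31 were higher and 8 lower (median 0.37). YFP+ against YFP- cells gave 15 of 33 higher and 9 lower without VEGF-C (median 0.98), and 14 of 33 higher and 12 lower with it (median -0.10). Myc, a growth regulator, stood at 315 and 475 FPKM in YFP+ cells with and without VEGF-C, against 91.8 and 87.1 FPKM in YFP- cells with and without it. Its order over the libraries was that of Jun except within YFP- cells. Egr2, a close relative of Egr1, stood at 12.6 and 0.353 FPKM in YFP+ cells and at 105 and 77.4 FPKM in YFP- cells, in the same order. Btg2, an antiproliferative factor, stood at 44.5 and 0.580 FPKM in YFP+ cells and at 189 and 51.9 FPKM in YFP- cells. Egr2 and Btg2 were higher in both YFP- libraries than in either YFP+ one, an order that held for 17.1% of all rows and 21.3% of well-expressed rows. Fosb, Fosl1, Fosl2, Jun, Junb and Ier2 had the opposite order, but Fos and Jund did not. The values of Egr2 and Btg2 under 1 FPKM are those of the sparse YFP+ library, where such gaps were not rare. Dusp1, a phosphatase that switches off the kinases upstream of AP-1, stood at 45.1 and 18.0 FPKM in YFP+ cells and at 131 and 10.1 FPKM in YFP- cells. Zfp36, which speeds the decay of short-lived messages, stood at 68.3 and 122 FPKM in YFP+ cells and at 388 and 65.0 FPKM in YFP- cells. Both were highest in the YFP- library with VEGF-C, as were 40.1% of well-expressed rows.

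Among 19 other leucine zipper factors that can pair with Fos or Jun proteins or act beside them, 5 of 16 measured were higher with VEGF-C in YFP+ cells and 5 lower (median -0.01), and 8 of 16 were higher and 2 lower in YFP- cells (median 1.04). Without VEGF-C 6 of 16 were higher in YFP+ than in YFP- cells and 5 lower (median 0.39), and with it 2 of 15 were higher and 6 lower (median -0.68). Maff, a small Maf protein, stood at 25.3 and 114 FPKM in YFP+ cells with and without VEGF-C, against 13.9 and 1.02 FPKM in YFP- cells with and without it. Atf4, the factor of the integrated stress response, stood at 421 and 1084 FPKM in YFP+ cells and at 529 and 367 FPKM in YFP- cells. Crem, a cyclic AMP response factor, was highest in YFP- cells with VEGF-C, at 83.3 FPKM, against 5.42 FPKM there without it. The YFP- library with VEGF-C held the highest value of 40.1% of well-expressed rows.

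Of 22 upstream kinases and serum response factors, 7 were higher and 7 lower with VEGF-C in YFP+ cells (median -0.56), and 6 of 20 were higher and 11 lower in YFP- cells (median -1.11). YFP+ cells had 9 of 21 higher and 6 lower without VEGF-C (median 0.30), and 13 of 22 higher and 4 lower with it (median 1.26). Mapk3, which encodes the kinase ERK1, stood at 31.2 and 65.0 FPKM in YFP+ cells with and without VEGF-C, against 140 and 71.6 FPKM in YFP- cells with and without it. It was most abundant in YFP- cells with VEGF-C, as were 40.1% of well-expressed rows.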

How the data were processed

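Sorted hippocampal cells gave 4 pooled libraries. Per the labels' protocols, SMARTer libraries were made and sequenced as paired reads. The submitters' processing notes name mapping to mm10 with TopHat 2.0.9, unstranded and without junctions outside the annotation, SAMtools 0.1.18, Bowtie 2.1.0, and quantification with Cuffdiff of Cufflinks 2.1.1; none of the sources names the annotation version. The authors deposited FPKM and, in another table, normalized counts, here treated as a signal since the deposited signal values were not whole. The ratio of the 2 tables varied little between libraries (median coefficient of variation 0.230% over rows above 0 in all 4). Of 23361 rows, 27 whose symbols had become dates were left out (0.251% to 0.317% of normalized counts).

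Each library's normalized counts came in steps of 1 size; of values under 2000 such steps, 99.0% to 99.6% fell within 0.05 of a whole number, and dividing by the step gave inferred fragments. A stricter test did not accept the values as whole reads, and no count test was run. From the fragments, 95% exact Poisson and conditional binomial intervals were computed. They cover counting error only, since amplified fragments are not independent molecules. An FPKM of 0 can be a failed estimate: Hnrnpa1 was listed at 0 in 1 library. Because the mapping was unstranded, reads of overlapping antisense genes cannot be told apart.

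With 1 library per group no test was run. Log2 ratios used a pseudocount of 1 and rows that reached 1 FPKM in either library compared. Scripts were tested on simulated data and run with Python 3.11.15, NumPy 2.4.6, pandas 2.3.3 and SciPy 1.17.1; positions come from GENCODE M21 (mm10). The members and lists were chosen with earlier results of these data known. All 10 members were named, and other genes were those with the highest FPKM or the most extreme log2 ratios of their list, or the most alike profile; of these, examples are given, and 1 gene is not reported here.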

Additional observations from a re-analysis of the deposited data

Results flagged for a closer look

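For 4 members the log2 ratio with over without VEGF-C had one sign in YFP+ cells and the other in YFP- cells, and none of these differences was tested. Of well-expressed rows, 73.7% lay below 0 in YFP+ cells and 74.6% above 0 in YFP- cells, the signs of Jund, Junb and Egr1. Over all rows at 1 FPKM or more, 57.3% lay above 0 in YFP+ cells and 56.7% below 0 in YFP- cells, the signs of Fosl1. How many rows had opposite signs was not counted. Jund stood at -1.33 in YFP+ and 2.32 in YFP- cells, a difference of -3.64. Fosl1 stood at 1.61 and -1.37 in the same order, a difference of 2.98. The differences of Jund and Fosl1 kept their signs under every scaling and pseudocount tried. Junb stood at -0.85 and 0.03, a difference of -0.88. In YFP- cells the FPKM ratio of Junb was 1.02 with a counting interval of 0.877 to 1.18, and its log2 ratio there turned negative under upper-quartile scaling and equal sums. Egr1 stood at -0.56 and 0.31, a difference of -0.86. With equal sums of FPKM the differences of Junb and Egr1 became 0.03 and 0.06.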

How the results depend on the processing

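No paired analysis was possible because each group has 1 library, and leaving out a replicate was impossible for the same reason. Scaling to equal sums of FPKM was chosen after seeing the data. It moved the median row from 0.59 to 1.15 (VEGF-C in YFP+ cells), -0.54 to -0.87 (VEGF-C in YFP- cells), -0.66 to -1.04 (populations without VEGF-C) and 0.69 to 1.21 (with VEGF-C). For VEGF-C in YFP+ cells, 2 members were higher with upper quartiles and 2 with equal sums, and 2, 1 and 8 were lower with upper quartiles, equal sums and re-centring. In YFP- cells re-centring gave 2 higher, a pseudocount of 10 gave 1 lower, and the filter at a mean of 20 FPKM gave 0 lower among 6 members. YFP+ over YFP- without VEGF-C had 5 higher with equal sums. With VEGF-C it had 3 higher and 2 lower after re-centring, and 3 higher at a mean of 20 FPKM among 8 members. The difference of responses had 1 member upward with a pseudocount of 10 and 1 after re-centring, and 7, 1 and 1 downward with re-centring, upper quartiles and equal sums. Fosl2 reversed in that difference with a pseudocount of 10, to -0.12 against 1.97. Egr1 became highest in YFP- cells without VEGF-C with upper quartiles and with equal sums, so 1 member each was highest in either YFP- library, and 1 member (Egr1) lay below both YFP- libraries in both YFP+ ones. With equal sums 1 member, not 2, was lower in both libraries with VEGF-C. A filter on rows cannot change a ratio; under the other settings 138 of 300 recomputed member ratios stayed within counting error, 162 moved beyond it, and 20 had the other sign, all but that of Fosl2 for values below 2-fold as reported. The cause was not tested. Counting intervals are widest for Fosb and Fosl2 in YFP- cells with VEGF-C, at 1 and 8 inferred fragments.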

Other observations

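Heat shock genes and genes known as AP-1 targets were read in the same libraries. At least 2-fold higher and lower stood 45.5% and 26.3% of all rows with VEGF-C in YFP+ cells (13.0% and 44.6% of well-expressed rows), and 25.3% and 45.3% in YFP- cells (42.6% and 11.3%). For YFP+ over YFP- cells the shares were 30.1% and 46.7% without VEGF-C (49.8% and 16.4%), and 47.0% and 27.6% with it (16.2% and 45.2%). The counts of both lists are to be read against these. Hspa1a, an inducible chaperone, stood at 12.7 and 18.2 FPKM in YFP+ cells with and without VEGF-C, against 325 and 58.9 FPKM in YFP- cells with and without it. Its near-identical copy Hspa1b, which can share reads with it, stood at 8.51 and 12.7 FPKM in YFP+ cells and at 117 and 36.1 FPKM in YFP- cells. Of 11 heat shock genes, 0 were at least 2-fold higher and 1 lower with VEGF-C in YFP+ cells (median -0.36), and 3 were higher and 1 lower in YFP- cells (median 0.49). YFP+ over YFP- cells had 5 higher and 2 lower without VEGF-C (median 0.44) and 2 higher and 3 lower with it (median -0.07). Hspa8, the constitutive chaperone, stood at 2637 and 3093 FPKM in YFP+ cells and at 1425 and 1442 FPKM in YFP- cells with and without VEGF-C.

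Of 23 genes known as AP-1 targets, 7 of 16 measured were higher and 3 lower with VEGF-C in YFP+ cells (median 0.32), and 7 of 18 were higher and 6 lower in YFP- cells (median 0.39). YFP+ over YFP- cells had 7 of 19 higher and 11 lower without VEGF-C (median -1.09), and 8 of 18 higher and 6 lower with it (median 0.86). Hbegf, a growth factor, stood at 176 and 316 FPKM in YFP+ cells with and without VEGF-C, against 55.8 and 17.7 FPKM in YFP- cells. Spp1, which encodes osteopontin, stood at 37.5 and 0.862 FPKM in YFP+ cells with and without VEGF-C, against 0.209 and 17.4 FPKM in YFP- cells. Its values under 1 FPKM are those of the sparse libraries, where such gaps were not rare.

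The rows most like each member were found by the Euclidean distance between log2(FPKM + 1) profiles over the 4 libraries, each centred on its mean, among 4435 rows at 1 FPKM or more in all 4. Nearest to Fos were Snx22 at 0.10 and Mafg at 0.18, to Jun Rab5b at 0.11, to Junb Prmt5 at 0.04, to Egr1 Scd1 at 0.07 and to Fosl1 Scmh1 at 0.44. With 4 points per profile, such nearness is a description of these libraries.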
